A study of Mus musculus with 6 samples.

Results

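The Zfp genes of the mouse carry the symbol of zinc finger protein followed by a number, and they include the largest group of DNA-binding factors in the genome. Their accessible regions were taken from the ATAC-seq peak table of muscle stem cells (MuSCs) as all peaks that the authors had annotated to a protein-coding gene whose symbol starts with Zfp and a digit. This gave 267 peaks at 215 genes, out of 75412 peaks in the table and 23357 peaks annotated to protein-coding genes. The rule itself uses the annotation and no measured value.

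ATAC-seq measures open chromatin by the rate at which the Tn5 transposase cuts and tags DNA. The assay was run on freshly isolated MuSCs, the resident stem cells of skeletal muscle, from C57BL/6 mice, with 3 control libraries and 3 libraries from Taf4a sKO animals. TAF4A is a subunit of TFIID, the complex that binds core promoters and brings in RNA polymerase II. In Taf4a sKO animals both floxed Taf4a alleles were deleted by a tamoxifen-inducible Cre recombinase under control of Pax7, which directs the deletion to cells that express Pax7. Controls were littermates with floxed Taf4a alleles, with or without the Pax7 Cre allele, and tamoxifen is named for the sKO group. MuSCs had been sorted as cells without CD45, CD31 and SCA1 and with integrin alpha 7, or by a Pax7 reporter. The deposited value of each peak is a depth-normalized read count rounded to a whole number. The values summed to 37722015, 35226223 and 42803315 in the control libraries and to 44311913, 41661725 and 41948821 in the Taf4a sKO libraries.

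The peak at the start site of the targeted gene (symbol Taf4 in the table, chr2:179975752-179977530) had values of 2305, 1998 and 2375 in control and 2095, 2124 and 2104 in Taf4a sKO MuSCs, and the groups overlapped. Accessibility of a start site does not show whether the gene was deleted, so this peak does not check the genotype. A second peak 3331 bp from the start had 488, 437 and 653 against 831, 695 and 759 and rose by 0.55 ± 0.14 on the log2 scale (SE, limma adjusted p = 0.00295). All 8 muscle stem cell markers (Pax7, Myf5, Itga7, Calcr, Vcam1, Cdh15, Sdc4 and Cxcr4) had a peak, with a median of 1269 per kb of peak at the peak nearest the start site and Cdh15 highest at 2327 per kb. Among blood cell markers Ptprc, Itgam and Cd3e had none, and Cd68 had a peak. Here and below, a marker without a peak is one with no peak annotated to it. Pax7 fell from 4533, 3128 and 3729 to 3084, 2923 and 3026 (log2 fold change -0.32, limma adjusted p = 0.0302) and Vcam1 rose from 572, 534 and 540 to 749, 697 and 658 (0.35, limma adjusted p = 0.0184), and the other 6 were not called. The summed values of the marker lists of other cells did not overlap between the groups except for the myofibre list. The Cd68 peak had 201, 208 and 307 in control against 129, 133 and 129 in Taf4a sKO. The 3 fibro-adipogenic markers with a peak, of 4 listed, summed to 1207, 1145 and 1389 against 1000, 994 and 924, with Cd34 the highest in value and Dpt the highest per kb, and Ly6a had none. Pdgfra and Dpt were called lower, and Cd34 was not called. The 4 endothelial markers summed to 1514, 1312 and 1845 against 1993, 1992 and 1888, led by Tek at 1040.3 per kb, while Pecam1, Cdh5 and Kdr lay at 132 to 186 per kb. Of these 4 only Tek was called, as higher (log2 fold change 0.40, limma adjusted p = 0.0101). The 2 mural markers with a peak, of 3 listed, summed to 2477, 2358 and 2717 against 3038, 2837 and 2843, led by Acta2, and Rgs5 had none. Acta2 was called higher (log2 fold change 0.31, limma adjusted p = 0.0142). Pdgfrb had 742, 713 and 912 against 773, 754 and 751 and was not called. The 5 myofibre markers summed to 1430, 1380 and 1522 against 1449, 1246 and 1224, led by Ckm per kb, and of these Acta1 fell from 279, 317 and 280 to 205, 169 and 178 (log2 fold change -0.67, limma adjusted p = 0.000849). The other myofibre markers were not called, with Myh4 at a log2 fold change of 0.48 (limma adjusted p = 0.0573). The part of such cells in the changes below was not tested.

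Most Zfp proteins bind DNA through tandem C2H2 fingers, each of which holds a zinc ion between cysteine and histidine pairs and contacts a few bases. Many also carry a KRAB box, which recruits the corepressor TRIM28 and with it SETDB1, HP1 proteins and histone deacetylases, and these factors are best known for keeping transposable elements silent. KRAB zinc finger genes arose by repeated duplication and stand in clusters of related genes along the chromosomes. A few genes of the same name encode CCCH fingers instead, which bind AU-rich elements in mRNA and trigger its decay.

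The coding sequences of 213 of the 215 genes could be matched. A KRAB A box was found in 112 genes, with a median of 12 C2H2 fingers and a maximum of 33. A further 96 genes had C2H2 fingers (median 10.5) and no KRAB box by the pattern used. The remaining 5 had no C2H2 finger and were Zfp36, Zfp36l1 and Zfp36l2, each with 2 CCCH fingers, and Zfp839 and Zfp185. A KRAB box that departs from the pattern is missed, so the other C2H2 genes here and below can include KRAB genes.

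**Figure D1:**
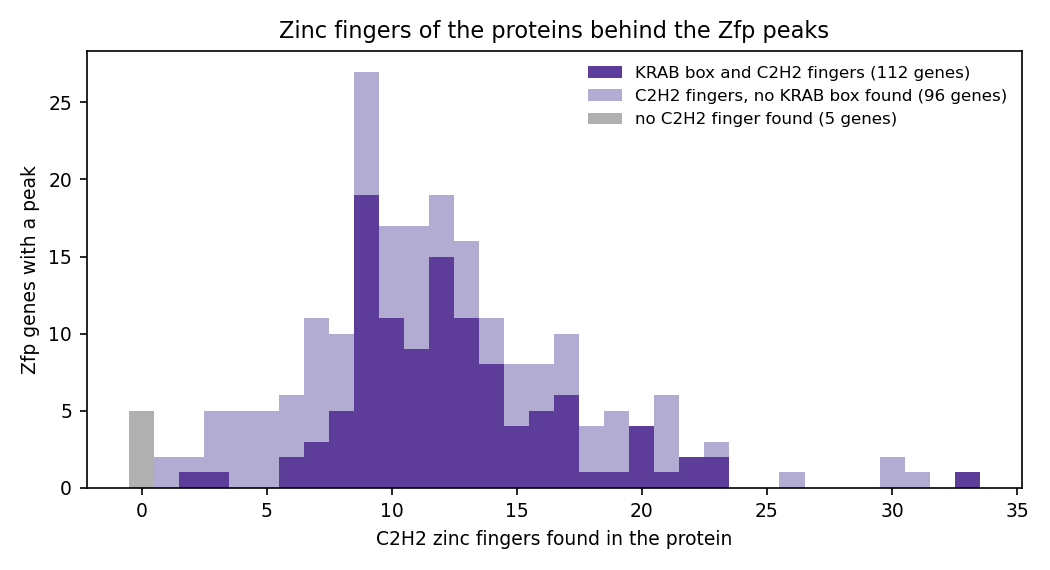
Number of C2H2 zinc fingers (x axis) found in the longest annotated protein of each Zfp gene with a peak, with the number of genes on the y axis and colors for the 3 protein classes. The 112 KRAB genes have a median of 12 fingers, and the 5 genes at 0 fingers are the CCCH genes with Zfp839 and Zfp185.

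The sequences of the distal Zfp peaks with changes beyond 2-fold are shown because these regions moved most among the called Zfp peaks. They were read from the GRCm38.p6 genome on the plus strand. Capitals mark any match to CCAAT (letters bound by NF-Y), GGGCGG (SP1), CCGGAAG (ETS factors), GCATGCGC (NRF1), TGACGTCA (CREB), AAGATGGC (YY1), TATAAA (the TATA box) or TGACTCA (AP-1) on either strand, where matches may overlap. The Zfp202 region is the whole peak chr9:40196077-40196296, and the Zfp36l2 and Zfp469 regions are the central 300 bases, chr17:84196171-84196470 and chr8:122263538-122263837. The Zfp334 region is the whole peak chr2:165391695-165391889 and the Zfp1 region the whole peak chr8:111650054-111650256. The Zfp202 region held 1 CCGGAAG and 1 TGACTCA, the Zfp1 region 1 CCAAT and 1 TGACTCA, and the other 3 held none of these letters.
Zfp202 distal peak: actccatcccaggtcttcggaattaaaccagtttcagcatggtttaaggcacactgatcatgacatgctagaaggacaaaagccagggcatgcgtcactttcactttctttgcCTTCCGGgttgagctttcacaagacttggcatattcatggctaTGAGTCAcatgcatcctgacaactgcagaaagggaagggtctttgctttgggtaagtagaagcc
Zfp36l2 distal peak: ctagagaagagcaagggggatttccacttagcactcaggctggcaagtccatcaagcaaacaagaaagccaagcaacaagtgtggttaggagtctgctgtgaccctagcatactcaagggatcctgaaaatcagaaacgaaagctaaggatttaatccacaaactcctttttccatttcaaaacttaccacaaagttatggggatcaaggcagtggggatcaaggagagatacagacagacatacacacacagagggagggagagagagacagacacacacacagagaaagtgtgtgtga
Zfp469 distal peak: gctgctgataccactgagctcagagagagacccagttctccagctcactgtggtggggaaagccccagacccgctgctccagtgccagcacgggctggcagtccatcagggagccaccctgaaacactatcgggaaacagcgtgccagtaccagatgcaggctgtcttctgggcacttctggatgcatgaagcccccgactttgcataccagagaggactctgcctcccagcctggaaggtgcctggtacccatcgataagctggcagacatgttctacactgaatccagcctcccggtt
Zfp334 distal peak: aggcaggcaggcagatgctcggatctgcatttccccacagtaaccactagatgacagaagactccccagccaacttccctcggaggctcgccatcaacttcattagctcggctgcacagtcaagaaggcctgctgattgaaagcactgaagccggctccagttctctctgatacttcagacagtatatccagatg
Zfp1 distal peak: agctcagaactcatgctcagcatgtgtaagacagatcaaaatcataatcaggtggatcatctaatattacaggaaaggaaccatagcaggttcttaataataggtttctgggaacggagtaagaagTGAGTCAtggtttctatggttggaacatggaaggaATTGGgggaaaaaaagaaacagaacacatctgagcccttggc

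In the central 200 bases of the peaks, TGACTCA stood in 13.6% of all peaks, in 0.98% of the Zfp peaks within 1 kb of a start site and in 12.7% of those farther away. The promoters of 4 Zfp genes whose start site peak changed are shown with the same capitals. They run from 250 bases before to 50 after the start in the RefSeq table (GRCm38.p6), all on the minus strand. Zfp810 (chr9:22307589-22307888) had a peak that rose, and Zfp773 (chr7:7136706-7137005), Zfp825 (chr13:74493912-74494211) and Zfp777 (chr6:48047745-48048044) had peaks that fell. Zfp810 holds 2 CCAAT and 1 GGGCGG, Zfp773 holds 1 CCAAT, Zfp825 holds 1 CCAAT, 1 GGGCGG and 3 CCGGAAG, and Zfp777, with a GC content of 82.3%, holds 3 GGGCGG.
Zfp810 promoter: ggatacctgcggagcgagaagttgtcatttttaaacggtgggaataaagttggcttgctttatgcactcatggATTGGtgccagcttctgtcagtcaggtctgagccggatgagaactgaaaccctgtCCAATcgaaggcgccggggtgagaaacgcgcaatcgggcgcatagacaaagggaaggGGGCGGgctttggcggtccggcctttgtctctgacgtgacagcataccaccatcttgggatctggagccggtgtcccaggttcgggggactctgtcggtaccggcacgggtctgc
Zfp773 promoter: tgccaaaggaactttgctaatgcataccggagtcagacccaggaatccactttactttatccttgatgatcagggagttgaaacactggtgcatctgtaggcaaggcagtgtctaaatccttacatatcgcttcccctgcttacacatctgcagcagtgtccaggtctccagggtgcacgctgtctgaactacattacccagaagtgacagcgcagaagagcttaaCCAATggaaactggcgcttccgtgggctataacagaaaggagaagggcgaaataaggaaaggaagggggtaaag
Zfp825 promoter: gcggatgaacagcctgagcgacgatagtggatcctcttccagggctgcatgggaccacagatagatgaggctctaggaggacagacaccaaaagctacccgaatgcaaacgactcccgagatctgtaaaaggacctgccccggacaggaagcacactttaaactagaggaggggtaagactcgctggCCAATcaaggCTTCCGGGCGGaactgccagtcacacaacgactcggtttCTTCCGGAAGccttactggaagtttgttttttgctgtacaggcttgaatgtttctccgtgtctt
Zfp777 promoter: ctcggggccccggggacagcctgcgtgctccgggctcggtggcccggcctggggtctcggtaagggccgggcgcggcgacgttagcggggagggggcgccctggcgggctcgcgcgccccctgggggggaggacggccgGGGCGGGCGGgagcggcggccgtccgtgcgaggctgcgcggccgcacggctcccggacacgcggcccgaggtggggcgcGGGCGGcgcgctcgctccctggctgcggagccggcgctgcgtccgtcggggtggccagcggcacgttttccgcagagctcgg

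The promoter table held 215 promoters of 183 of the Zfp genes. CCAAT was found in 51.6% of them, against 36.7% of the 13524 promoters of protein-coding genes with a peak and 37.4% of all 32851 promoters. Among the Zfp promoters it stood in 61.5% of those of KRAB genes by the pattern used and in 37.5% of those of other C2H2 genes. The GC box GGGCGG was in 38.6% of Zfp promoters against 59.7% of promoters of protein-coding genes with a peak and 35.7% of all. CCGGAAG was in 25.6% of Zfp promoters against 14.4% and 8.86%. The median GC content was 54% in Zfp promoters, 60.3% in those of protein-coding genes with a peak and 52.7% in all, and the motif shares were not adjusted for it. TATAAA was in 6.05%, AAGATGGC in 5.58%, GCATGCGC in 6.05%, TGACGTCA in 3.26% and TGACTCA in 3.26% of Zfp promoters, against 13.6%, 2.75%, 2.71%, 1.79% and 5.2% of all promoters.

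Zfp peaks lay close to start sites. The peak centre was within 1 kb of the annotated start in 204 of the 267 peaks (76.4%), against 51.6% of peaks at protein-coding genes and 18.7% of all peaks. By the annotation of the centre, 104 Zfp peaks fell in an untranslated region, 80 between genes, 64 in an intron, 10 in a coding exon and 9 in another exon. The peak covered an annotated start of its own gene in 212 cases, and 35 peaks also covered a start of another gene, so that their signal cannot be assigned to a single promoter. 169 genes had 1 peak, 40 had 2, and Zfp217, Zfp36l1, Zfp36l2, Zfp469, Zfp651 and Zfp949 had 3.

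The signal of Zfp peaks covered a wide range. The mean over the 6 libraries ran from 11 to 8035 per peak with a median of 658, and per kb of peak the median was 724 for all Zfp peaks, 823 for those within 1 kb of the start and 463 for those beyond. Protein-coding peaks within 1 kb had a median of 1093 per kb, and their median GC content was 60.5% against 55.6% for the Zfp peaks there. Peaks of KRAB genes within 1 kb had a median of 722 per kb and those of other C2H2 genes 977 per kb.

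The 5 Zfp peaks of highest mean value per kb belonged to Zfp78 (4300.3 per kb), Zfp317 (4106), Zfp869 (3397), Zfp36 (3283) and Zfp386 (3242). The Zfp78 peak had 5392, 4869 and 6267 in control and 5506, 4744 and 4726 in Taf4a sKO. The Zfp317 peak had 2462, 2180 and 2790 against 3115, 2715 and 2775. Of these 5, only the Zfp36 peak, described below, passed the test on the deposited values, and the genotypes overlapped in the Zfp78 and Zfp317 peaks. The Zfp78 peak, with a log2 fold change of -0.14, passed as lower on each of the 3 other scalings described below (-0.25, -0.29 and -0.23). The Zfp317 peak (0.22) passed as higher without control replicate 3 (0.31, limma adjusted p = 0.00463).

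The question of the comparison was whether loss of TAF4A changes chromatin accessibility in MuSCs, here at the Zfp genes. limma was fitted to log2(value + 1) of all 75384 peaks whose mean exceeded 10, with Benjamini-Hochberg adjustment over all of them, and a peak was called at an adjusted p under 0.05. All 267 Zfp peaks passed the filter. Of these, 24 were higher in Taf4a sKO MuSCs (8.99%) and 19 lower (7.12%), beside a background of 28.0% higher and 13.9% lower among all peaks tested. The higher peaks had a median log2 fold change of 0.43 (0.28 to 1.15) and the lower peaks of -0.52 (-1.28 to -0.30). In 239 of the 267 peaks the log2 fold change was within 0.5 of 0.

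Calls were also counted by distance from the start site, with no test of the difference. Peaks of protein-coding genes within 1 kb of a start site were called higher in 10.03% and lower in 5.67%, and Zfp peaks there in 7.84% (16 of 204) and 6.37% (13 of 204). Beyond 1 kb the shares were 26.02% and 13.96% at protein-coding genes and 12.7% (8 of 63) and 9.52% (6 of 63) at Zfp genes. KRAB genes had 10 higher and 10 lower peaks of 132, and other C2H2 genes 10 and 9 of 121. The 72 peaks of Zbtb, Zscan and Zkscan genes, which also encode C2H2 proteins, were higher in 13.9% and lower in 4.17%.

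The balance of the calls depended on the scaling of the libraries. On the deposited values the median log2 fold change was 0.11 over all peaks and 0.038 over Zfp peaks, a difference of -0.068. Within 1 kb of a start site it was 0.058 over protein-coding peaks and 0.053 over Zfp peaks. Beyond 1 kb it was 0.075 and -0.13. Median-of-ratios factors moved the median of all peaks to -0.0072, the total signal in peaks to -0.042 and quantile normalization to -0.024, and the Zfp median to -0.075, -0.11 and -0.14. The Zfp calls were then 20 higher and 65 lower, 15 higher and 88 lower, and 20 higher and 91 lower, beside 25.3% higher and 22.5% lower, 23.4% and 25.8%, and 24.8% and 25.1% among all peaks. The lower share of protein-coding peaks within 1 kb was 23.1%, 33.5% and 35.1%. Zfp peaks beyond 1 kb were lower in 31.7%, 39.7% and 34.9% and higher in 11.1%, 9.52% and 11.1% on these 3 scalings. 15 of the 24 higher peaks and all 19 lower peaks were called in the same direction on all 4 scalings. Leaving out single libraries moved the number of higher Zfp peaks to 13 without control replicate 1, 13 without control replicate 2, 60 without control replicate 3, 13 without Taf4a sKO replicate 1 and 12 without Taf4a sKO replicate 3.

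**Figure D2:**
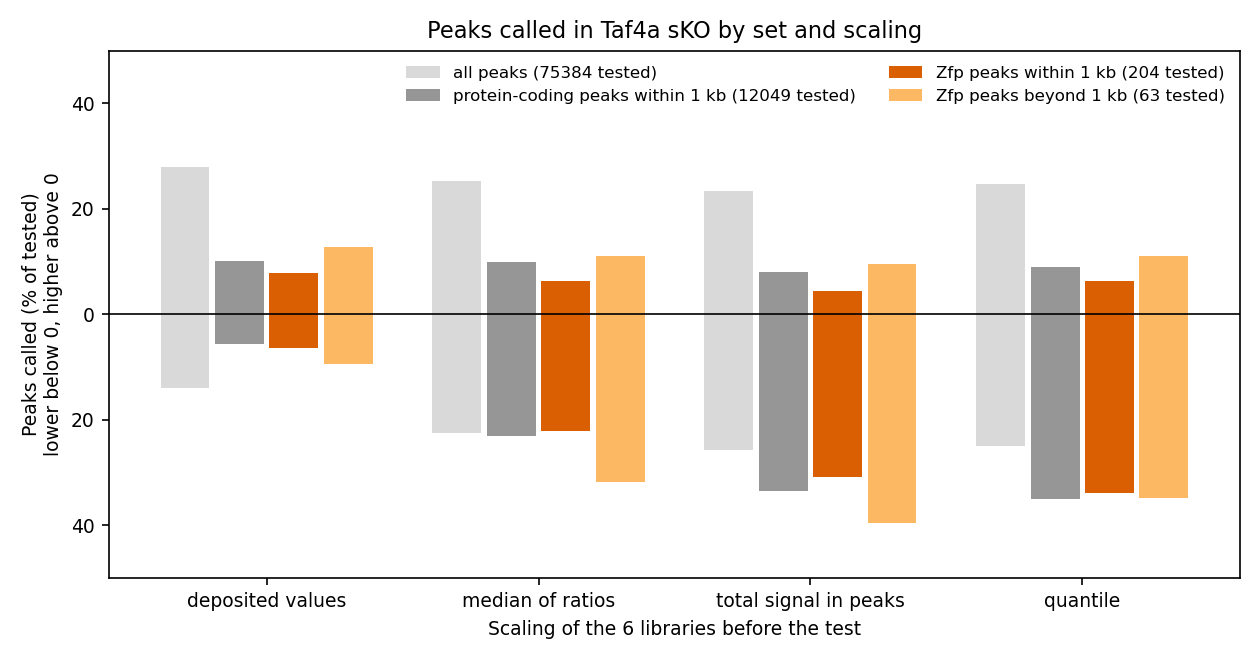
Share of tested peaks called higher (bars above 0) and lower (bars below 0) in Taf4a sKO by limma at adjusted p under 0.05, for 4 sets of peaks and 4 scalings of the libraries. Zfp peaks within 1 kb of a start site are called lower in 6.37% on the deposited values and in 22.1% to 33.8% on the other scalings, beside 5.67% and 23.1% to 35.1% of protein-coding peaks there.

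Zfp peaks took a smaller share of the signal in Taf4a sKO libraries. They held 0.663%, 0.653% and 0.645% of the summed values in control and 0.619%, 0.608% and 0.613% in Taf4a sKO. The groups did not overlap in this share. The summed Zfp values themselves were 250236, 230082 and 276078 in control and 274102, 253354 and 257118 in Taf4a sKO, where the groups overlapped. Within the peaks of protein-coding genes the Zfp share was 1.11%, 1.11% and 1.10% against 1.09%, 1.06% and 1.08%, again without overlap. The median value of a Zfp peak was 661, 624 and 717 in control and 680, 667 and 685 in Taf4a sKO, where the groups overlapped. Scaled to the total signal in peaks, the median log2 fold change within 1 kb of a start was -0.090 for protein-coding and -0.095 for Zfp peaks. It was -0.086 for all protein-coding peaks and -0.28 for Zfp peaks beyond 1 kb. The smaller share was thus not particular to Zfp peaks near start sites.

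**Figure D3:**
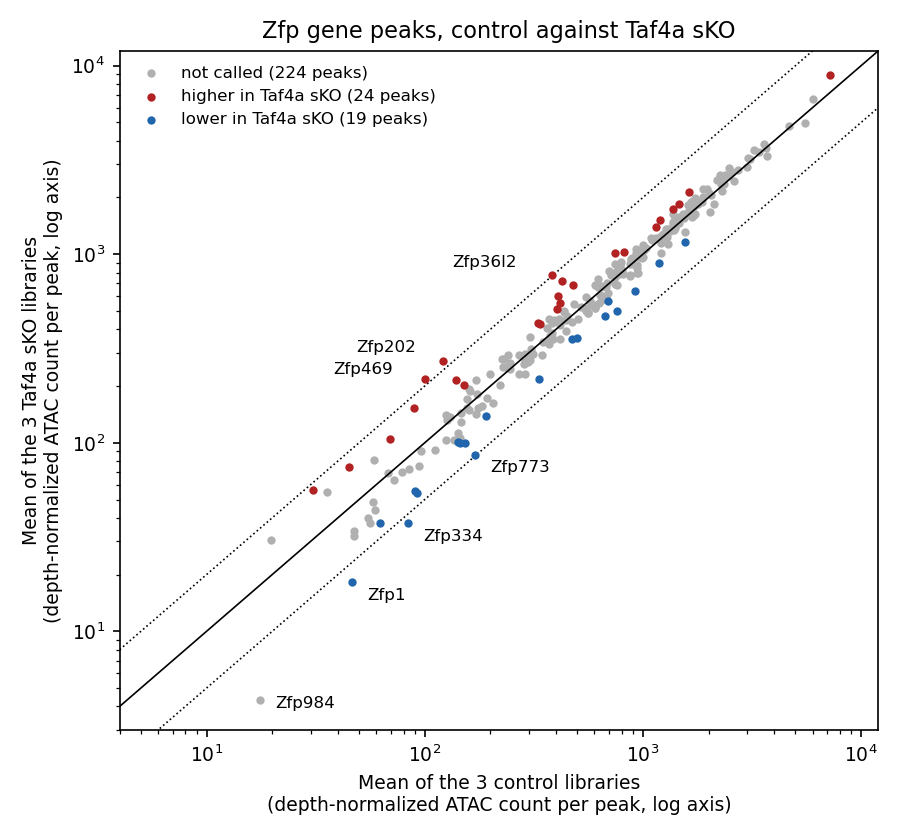
Mean depth-normalized ATAC count of the 3 control libraries (x axis, log) against that of the 3 Taf4a sKO libraries (y axis, log) for the 267 Zfp peaks, colored by the limma call, with equality as a solid line and 2-fold as dotted lines. Of the 24 higher and 19 lower peaks, the distal ones of Zfp202, Zfp469, Zfp36l2, Zfp334 and Zfp1 lie beyond 2-fold, as does the uncalled peak of Zfp984.

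Changes beyond 2-fold were rare. A ratio of group means beyond 2-fold at an average value over 10 was used as the cutoff, where the study set the same limits on the fold change of its own model. By it, 3 Zfp peaks were gained (1.12%) and 3 lost (1.12%), beside 7.03% gained and 5.36% lost among all peaks tested. Within 1 kb of a start site 0% of Zfp peaks were gained and 0.49% lost, beside 0.81% and 0.90% of protein-coding peaks. Beyond 1 kb the shares were 4.76% and 3.17% at Zfp genes, beside 5.34% and 4.59% at protein-coding genes. All 3 gained peaks lay more than 1 kb from the start site. The lost peaks belonged to KRAB genes.

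The largest gain was at Zfp202, which encodes a SCAN domain protein of 9 C2H2 fingers known as a repressor of genes of lipid metabolism. The distal peak, in an intron of Zfp202 3871 bp from its start, had 122, 121 and 122 in control and 279, 244 and 295 in Taf4a sKO MuSCs. Every Taf4a sKO library lay far above every control library. The log2 fold change was 1.15 ± 0.15 (SE, limma adjusted p = 2.63e-06). Its start site peak (chr9:40191929-40192981) had 1580, 1576 and 1700 against 2313, 1980 and 2139 and also rose, by 0.40 ± 0.10 on the log2 scale (limma adjusted p = 0.00269). Zfp202 was the only Zfp gene with more than 1 peak in which all peaks were called in the same direction.

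At Zfp469, whose human counterpart is mutated in brittle cornea syndrome, the peak 5068 bp from the start (chr8:122263453-122263922), in an intron of Gm20388, had 86, 123 and 91 in control and 235, 173 and 249 in Taf4a sKO. The groups did not overlap, and the log2 fold change was 1.12 ± 0.18 (SE, limma adjusted p = 3.51e-05). The other peaks of Zfp469, 907 and 6583 bp from the start, had log2 fold changes of 0.073 ± 0.17 and 0.27 ± 0.16 (SE) and were not called.

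The CCCH genes encode the tristetraprolin family of mRNA decay factors, immediate early genes that restrain cytokine and, in MuSCs, Myod1 mRNA. The third gained peak was annotated to Zfp36l2 but lay 8374 bp from its start in an intron of the neighboring gene Thada (chr17:84195817-84196825). It had 400, 392 and 361 in control and 745, 726 and 855 in Taf4a sKO, without overlap, a log2 fold change of 1.01 ± 0.12 (SE, limma adjusted p = 9.61e-07). Over the start site of Zfp36l2 the values were 3647, 3257 and 4218 against 3589, 3209 and 3180, and the groups overlapped at a log2 fold change of -0.15 ± 0.11 that did not pass the test. On the median-of-ratios, total signal and quantile scalings it passed as lower (-0.26, -0.30 and -0.26).

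Zfp36 itself had the highest mean value per peak among the Zfp peaks, in a broad region upstream of the start (chr7:28380890-28383336). Its values were 7180, 6380 and 8029 in control and 9770, 8355 and 8494 in Taf4a sKO, and it rose by 0.30 ± 0.10 on the log2 scale (limma adjusted p = 0.0211), a call that was lost without control replicate 1 (adjusted p = 0.0777), control replicate 2 (0.0598) or Taf4a sKO replicate 1 (0.148). The peak over the gene body (chr7:28378837-28379583) had 1996, 1821 and 2273 against 1934, 1583 and 1530, a log2 fold change of -0.27 ± 0.11 that did not pass the test (limma adjusted p = 0.0569). It passed as lower on the median-of-ratios, total signal and quantile scalings (-0.39, -0.42 and -0.41), with the replicate block (adjusted p = 0.0484), and without control replicate 2 (0.0302) or Taf4a sKO replicate 1 (0.0212). In Zfp36l1 the small peak 9074 bp from the start had 38, 43 and 54 against 79, 60 and 85 and rose by 0.72 ± 0.23 (limma adjusted p = 0.0154), which did not hold when control replicate 1 (adjusted p = 0.0547), control replicate 2 (0.0604), Taf4a sKO replicate 1 (0.0522) or Taf4a sKO replicate 3 (0.0856) was left out. Its broad start site peak had a log2 fold change of 0.043 ± 0.10.

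Among the other distal regions, a peak 7295 bp from the start of Zfp217 rose (chr2:170155008-170155787). Zfp217 encodes an oncogenic C2H2 protein that works in corepressor complexes with CoREST and LSD1. The peak had 370, 389 and 517 in control and 708, 751 and 694 in Taf4a sKO, with no overlap and a log2 fold change of 0.77 ± 0.13 (SE, limma adjusted p = 7.28e-05). The 2 other peaks of Zfp217, at 172 and 5652 bp, both had a log2 fold change of 0.18, with SE of 0.11 and 0.13, and were not called.

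Distal peaks also fell. At Zfp334, a KRAB gene with 14 fingers, the peak 3533 bp from the start had 82, 85 and 85 in control and 32, 41 and 40 in Taf4a sKO. The log2 fold change was -1.14 ± 0.22 (SE, limma adjusted p = 0.000233) without overlap of the groups, while its start site peak had 0.12 ± 0.12. At Zfp1, a KRAB gene, the intronic peak 6754 bp from the start had 40, 42 and 58 against 19, 18 and 18, a log2 fold change of -1.28 ± 0.29 (SE, limma adjusted p = 0.00117), and its start site peak had 0.20 ± 0.10. The values of this Zfp1 region are low in every library. The remaining lost peak, at the start of the KRAB gene Zfp984, had 21, 31 and 1 against 1, 4 and 8, where control replicate 3 lay within the Taf4a sKO values, and it did not pass the test (log2 fold change -1.32 ± 0.95, limma adjusted p = 0.294). Without control replicate 3 its log2 fold change was -2.57 and the adjusted p 0.00233.

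In the 46 Zfp genes with several peaks, the log2 fold changes within a gene spread by a median of 0.29 and by up to 1.48 in Zfp1.

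Start site peaks of KRAB genes moved both ways. The Zfp810 peak (chr9:22307163-22308066, 33 bp from the start) had 471, 465 and 493 in control and 680, 682 and 703 in Taf4a sKO. The libraries of each group lay close together and the groups far apart, at a log2 fold change of 0.53 ± 0.12 (SE, limma adjusted p = 0.000841). The other peak of Zfp810, 2174 bp from the start, had a log2 fold change of -0.13 ± 0.17 (SE) and was not called. Zfp454 (chr11:50887076-50887938) had 456, 333 and 435 against 645, 562 and 603, a log2 fold change of 0.57 ± 0.14 (SE, limma adjusted p = 0.00156). Zfp970 (chr2:177464640-177465245), with 79, 82 and 108 against 167, 162 and 132, rose by 0.78 ± 0.18 (SE, limma adjusted p = 0.00146). The other peak of Zfp970, 813 bp from the start, had 0.56 ± 0.34 (SE) and was not called. The called peaks of all 3 genes were named among those whose groups do not overlap, so this separation follows from the choice. Of the called Zfp peaks, 21 of the 24 higher and 17 of the 19 lower had groups without overlap.

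The start site peak of Zfp773 (chr7:7136342-7136857), a KRAB gene with 9 fingers, fell from 129, 182 and 201 to 94, 93 and 71. This was the largest fall at a start site among the called Zfp peaks, with a log2 fold change of -0.97 ± 0.19 (SE, limma adjusted p = 0.0003). Zfp825 (chr13:74493693-74494566) fell from 845, 663 and 770 to 543, 500 and 464, by -0.59 ± 0.13 on the log2 scale (limma adjusted p = 0.000559). Zfp975 (chr7:42692441-42693196) fell from 338, 320 and 346 to 269, 163 and 223, at -0.64 ± 0.16 (limma adjusted p = 0.0029). The groups did not overlap in these 3 peaks, which were named on that condition.

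Of the C2H2 genes without a KRAB box by the pattern used, Zfp711, an X-linked gene whose protein binds CpG island promoters, had a start site peak (chrX:112600401-112601958) of 871, 909 and 977 in control and 626, 667 and 628 in Taf4a sKO. It fell by 0.52 on the log2 scale, with an SE of 0.11 (limma adjusted p = 0.000644). The other 6 Zfp peaks on the X chromosome were not called and had log2 fold changes between -0.062 and 0.63. The 12 Y-linked peaks held 0.0199%, 0.0200% and 0.0162% of the summed values in control and 0.00823%, 0.00891% and 0.0113% in Taf4a sKO, and the 1883 X-linked peaks 1.91%, 1.91% and 1.90% against 1.85%, 1.85% and 1.86%. The part of the sex of the animals in these values was not tested.

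The start site peak of Zfp777 (chr6:48047272-48049111) had 1466, 1440 and 1755 in control and 1163, 1150 and 1159 in Taf4a sKO, a log2 fold change of -0.42 ± 0.11 (SE, limma adjusted p = 0.00289). Zfp874b (chr13:67483737-67484655) had 645, 605 and 759 against 523, 478 and 410, a log2 fold change of -0.51 ± 0.13 (SE, limma adjusted p = 0.00308). Both peaks were without overlap of the groups, a condition on which they were named.

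**Figure D4:**
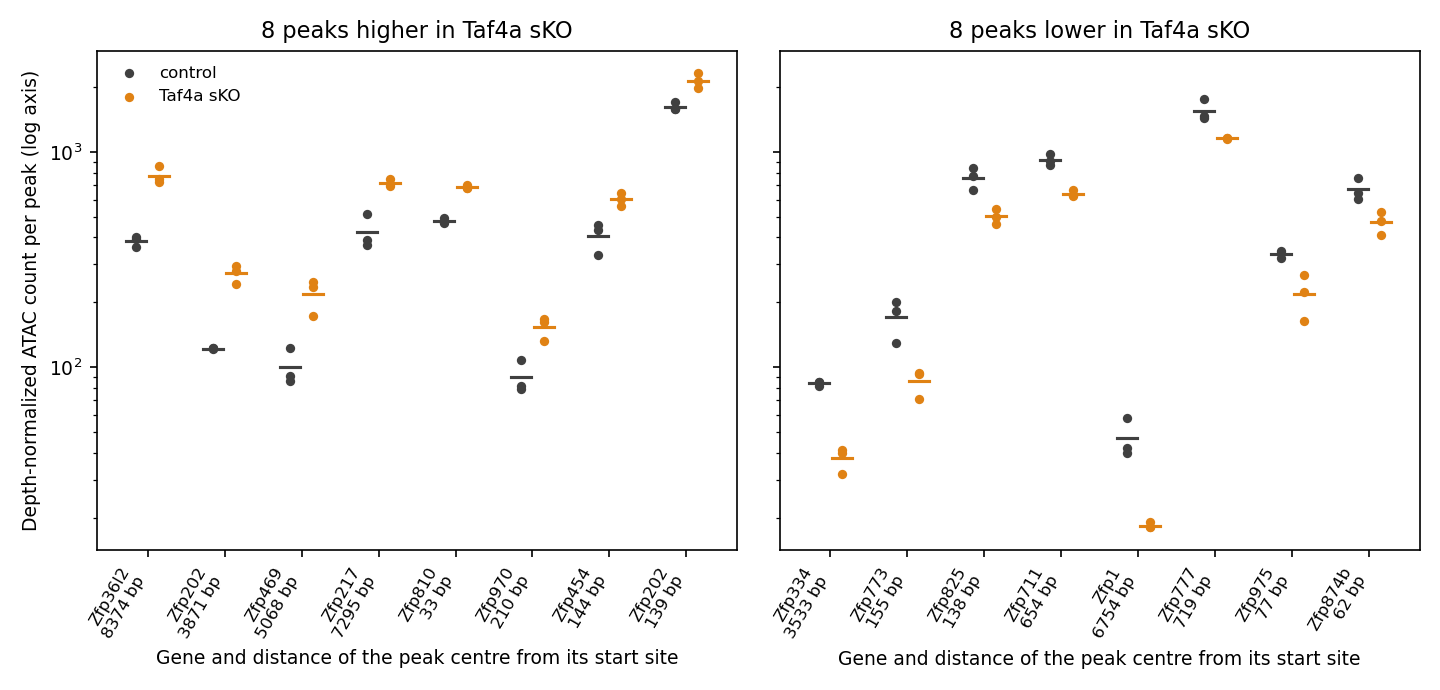
Depth-normalized ATAC count (log axis) in every control and Taf4a sKO library for the 8 higher and 8 lower Zfp peaks with the smallest p among called peaks whose groups do not overlap, with points for libraries and lines for group means (n = 3). The Zfp202 distal peak is at 121 to 122 in control and at 244 to 295 in Taf4a sKO, and the Zfp334 distal peak at 82 to 85 and at 32 to 41.

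9 of the 24 Zfp genes listed for a known role had a peak of their own. Besides the CCCH genes and Zfp217 these were Zfp57, Zfp809, Zfp384, Zfp106 and Zfp91, and none of the peaks of those 5 genes was called. Zfp57, which keeps DNA methylation at imprinted regions, had weak peaks at 1632 and 3943 bp from its start with 279 and 296 per kb. Their log2 fold changes were -0.16 ± 0.15 and 0.052 ± 0.17. The peak at 1632 bp also covers 9 annotated starts of Zfp57. Zfp809, which silences retroviruses in embryonic stem cells, had 1606, 1423 and 1814 in control and 1818, 1569 and 1615 in Taf4a sKO, and the groups overlapped (log2 fold change 0.051 ± 0.11). Zfp384, Zfp106 and Zfp91 had log2 fold changes of 0.14 ± 0.10, 0.024 ± 0.11 and 0.15 ± 0.10 (SE). Without control replicate 3, Zfp384 (0.20) and Zfp91 (0.23) passed as higher. The Zfp57 peak at 1632 bp passed as lower on the total signal (log2 fold change -0.31) and quantile (-0.35) scalings.

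The Zfp genes stood in clusters. 63 of the 267 peaks (23.6%) were on chromosome 7, which holds 7.69% of the peaks of protein-coding genes, 43 (16.1%) on chromosome 17, which holds 4.63%, and 25 (9.36%) on chromosome 13, which holds 3.47%. Along the chromosomes, the next protein-coding gene with a peak was again a Zfp gene for 94 of the 215 Zfp genes (43.7%), against 214 of the 14201 protein-coding genes with a peak and a next gene (1.51%). Runs of at least 3 Zfp genes with at most 500 kb between neighboring start sites formed 21 clusters that held 128 of the 215 genes (59.5%) and 149 peaks.

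The largest cluster, on chromosome 17 from Zfp160 to Zfp13 (chr17:21008903-23599487), held 20 genes, 17 of them with a KRAB box, and 23 peaks. Its median log2 fold change was 0.050. The start site peak of Zfp945 had 690, 689 and 854 in control and 1089, 978 and 979 in Taf4a sKO and rose by 0.45 ± 0.12 (limma adjusted p = 0.00309). A peak of Zfp52 436 bp from the start rose by 0.34 ± 0.12 (limma adjusted p = 0.0298), but with 935 in Taf4a sKO replicate 3 it overlapped the control maximum of 968, and the call was lost on the total signal (adjusted p = 0.0531) and quantile (0.174) scalings and without control replicate 1 (0.0925), control replicate 2 (0.146), Taf4a sKO replicate 1 (0.11) or Taf4a sKO replicate 2 (0.0949). In the same cluster Zfp995 fell from 169, 148 and 142 to 103, 100 and 98 (log2 fold change -0.60 ± 0.17, limma adjusted p = 0.00583). A distal peak of Zfp213 fell from 118, 140 and 179 to 107, 88 and 106 (-0.52 ± 0.18, limma adjusted p = 0.0271), a call not kept without control replicate 2 (adjusted p = 0.0784), control replicate 3 (0.0952) or Taf4a sKO replicate 2 (0.107). The other peaks of Zfp52 and Zfp213 had log2 fold changes of 0.050 and 0.071 and were not called. Peaks called higher and lower thus lay within the same run.

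The cluster on chromosome 13 from Zfp712 to Zfp273 (chr13:67061170-67813740) held 16 genes, 7 of them with a KRAB box by the pattern used, and 17 peaks. 4 of these were called lower and none higher, beside 13.9% lower and 28.0% higher among all peaks, and 11 had a log2 fold change below 0, with a median of -0.091 and a range of -0.51 to 0.18. The called peaks were those of Zfp712 (-0.30 ± 0.12, limma adjusted p = 0.0495), Zfp759 (-0.46 ± 0.14, 0.00859), Zfp874b and a peak in an untranslated region of Zfp65 that also covers 3 of its annotated starts (-0.42 ± 0.13, 0.0115). The Zfp759 peak had 581, 459 and 456 in control and 364, 385 and 333 in Taf4a sKO, and the Zfp65 peak 471, 452 and 500 against 377, 334 and 355. The other peak of Zfp65, 23 bp from the start given in the table, had a log2 fold change of 0.053 ± 0.16. The 8 other peaks in the interval were not called either way and had a median of -0.047. The number of lower peaks in the cluster was 7 or 8 on the other scalings, 3 with the replicate block, and 2 without control replicate 1, Taf4a sKO replicate 2 or Taf4a sKO replicate 3, where the calls of Zfp712 and of Zfp759 or Zfp65 were lost.

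The cluster on chromosome 7 from Zfp84 to Zfp566 (chr7:29768552-30090527), with 10 genes, 7 of them with a KRAB box, and 14 peaks, had no called peak. Its median value per peak was 584, 538 and 576 in control and 543.5, 530 and 539 in Taf4a sKO, with a median log2 fold change of -0.028. In the second large run on chromosome 17, from Zfp871 to Zfp101, 9 genes with 11 peaks had no call and a median of 0.068. The chromosome 7 runs from Zfp607b to Zfp36 (9 genes) and from Zfp180 to Zfp94 (8 genes) each had 2 higher peaks, and the run on chromosome 8 from Zfp930 to Zfp866 (6 genes, all with a KRAB box) had none.

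Of the smaller runs, single higher peaks were found from Zfp606 to Zfp446 and Zfp715 to Zfp819 on chromosome 7 and from Zfp709 to Zfp961 on chromosome 8. Single lower peaks were found from Zfp398 to Zfp777 on chromosome 6 and from Zfp954 to Zfp772 on chromosome 7, where the lower peak was that of Zfp773. The run from Zfp872 to Zfp810 on chromosome 9 had 1 of each. No peak was called from Zfp113 to Zfp68 on chromosome 5, Zfp444 to Zfp28 and Zfp747 to Zfp646 on chromosome 7, Zfp560 to Zfp846 on chromosome 9, Zfp41 to Zfp707 on chromosome 15, Zfp263 to Zfp597 on chromosome 16, Zfp119a to Zfp119b on chromosome 17 and Zfp185 to Zfp92 on the X chromosome.

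The median of the log2 fold change ran from -0.14 to 0.27 over the 21 clusters. The SD of single peaks within a cluster was 0.19 in the median cluster, and it was 0.32 over all Zfp peaks. 11 clusters had no called peak, 5 had higher peaks alone, 3 lower peaks alone and 2 both. In clusters 10 peaks were higher and 9 lower of 149, and outside clusters 14 and 10 of 118, beside 28.0% and 13.9% among all peaks. None of the gained and lost peaks lay in the 21 clusters, which count only genes with a peak. By all annotated genes, Zfp984 and Zfp334 do stand in runs of Zfp genes.

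**Figure D5:**
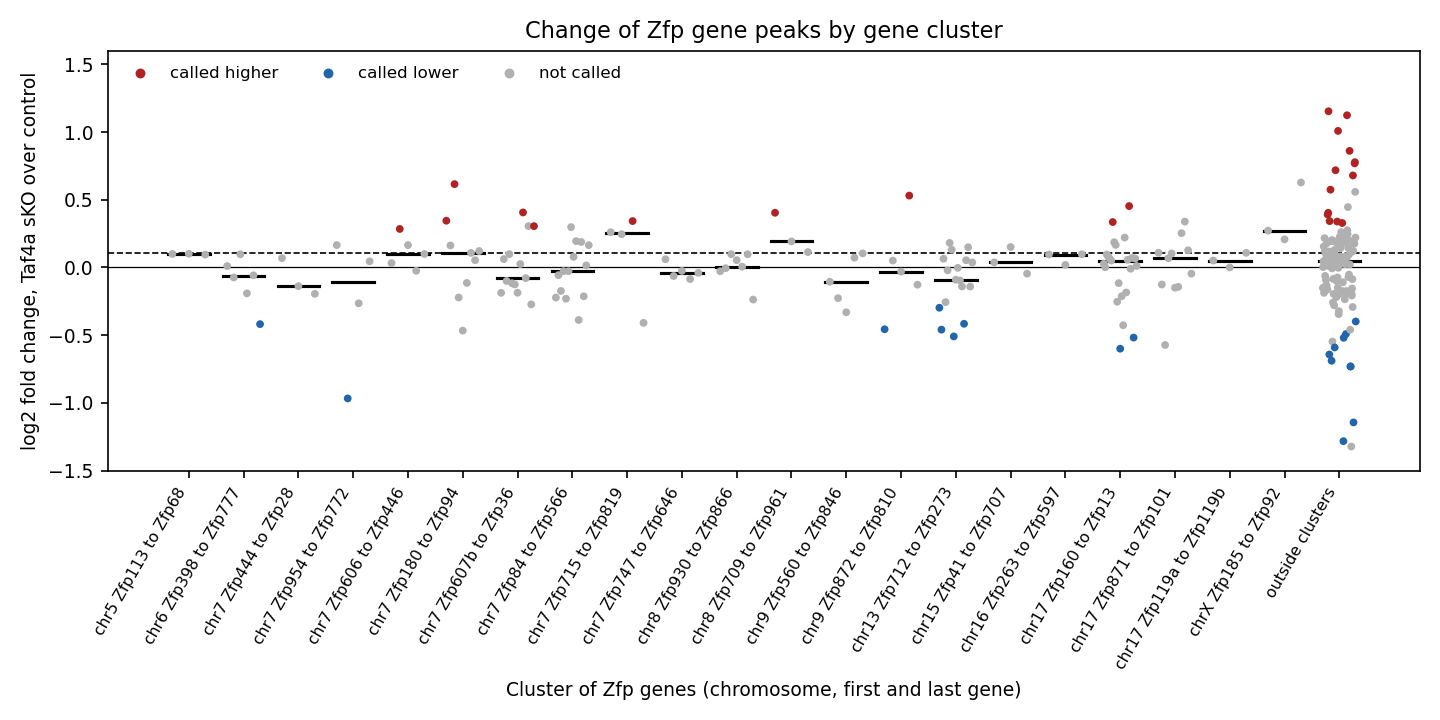
log2 fold change (Taf4a sKO over control, limma) of each Zfp peak in the 21 gene clusters and outside them, in chromosomal order within a cluster, with black bars for medians and a dashed line for the median of all peaks (0.11). In the chromosome 13 cluster from Zfp712 to Zfp273 the 4 called peaks are lower, while the chromosome 17 cluster from Zfp160 to Zfp13 holds 2 higher and 2 lower.

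Many Zfp genes had no peak of their own. The GENCODE annotation holds 394 protein-coding genes of this name, and 213 of them (54.1%) had a peak annotated to them, against 64.7% of all protein-coding genes. Of the 181 without, 117 had a peak within 1 kb of their start that the table gives to another gene. Genes in annotated clusters had a peak in 61.8% of cases (147 of 238) and the others in 42.3% (66 of 156). In the cluster from Zfp990 to Zfp933 on chromosome 4 (chr4:145510759-147848366) 2 of 18 genes had a peak, 1 of them Zfp984, and none of the 4 genes from Zfp968 to Zfp966 on chromosome 2 or the 6 from Zfp628 to Zfp580 on chromosome 7 did. On chromosome 17 the run from Zfp160 to Zfp13 had peaks at 20 of 23 genes. Reads that map to several places had been removed before counting, and the part of this in the genes without a peak was not tested.

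Calls were also counted by the letters of the promoter. Of the start site peaks of Zfp genes whose promoter holds CCAAT, 6 of 97 were higher and 6 lower, and of those without it 8 of 75 and 6, with median log2 fold changes of 0.054 and 0.064. Over all protein-coding genes the shares were 9.11% higher and 4.19% lower with CCAAT and 9.62% and 6.61% without it. With GGGCGG, 6 of 73 were higher and 4 lower, and without it 8 and 8 of 99, beside 8.53% and 4.72% of protein-coding peaks with it and 11.4% and 7.62% without it. With CCGGAAG, 5 of 44 were higher and 2 lower, and without it 9 and 10 of 128, beside 5.02% and 2.72% of protein-coding peaks with it and 10.4% and 6.22% without it.

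Of 29 names listed for partners of KRAB zinc finger proteins or of the same chromatin, 2 of which are names of the same gene, 24 had a peak. At the peak nearest the start 2 were higher and 1 lower, beside 10.03% and 5.67% of protein-coding peaks within 1 kb of a start site and 28.0% and 13.9% of all peaks, with no test of the difference, with a median log2 fold change of 0.072. A peak 4857 bp from the start of Atf7ip, which encodes the stabilizing partner of SETDB1 (chr6:136510677-136511370), fell from 463, 371 and 288 to 178, 160 and 204. The groups did not overlap, at a log2 fold change of -1.03 ± 0.17 (SE, limma adjusted p = 4.07e-05). The peak of Dnmt1, the maintenance DNA methyltransferase, 7618 bp from the annotated start, had 1502, 1470 and 1614 against 1958, 1859 and 1886 and rose by 0.32 ± 0.10 (limma adjusted p = 0.0135), which was lost without control replicate 1 (adjusted p = 0.0739), Taf4a sKO replicate 1 (0.0676) or Taf4a sKO replicate 3 (0.0618). The start site peak of Resf1, a silencer of endogenous retroviruses, rose by 0.28 ± 0.11 (limma adjusted p = 0.0421), a call that held neither on the total signal (adjusted p = 0.101) and quantile (0.24) scalings nor in 5 of the 6 fits with a library left out. Setdb1, Cbx1, Hdac1, Hdac2, Chd4, Daxx, Atrx and Uhrf1 were among those without a call. Trim28, Cbx3, Cbx5, Tasor and Fam208a, the latter 2 names for the same gene, had no peak annotated to them. Whether a peak at their start sites was given to another gene was not tested.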

How the data were processed

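ATAC-seq was analysed in 3 control and 3 Taf4a sKO libraries of sorted MuSCs. The authors trimmed reads with Trimmomatic 0.39, aligned them with STAR 2.7.11b to mm10, removed duplicate (Picard 3.1.1), spliced, multi-mapping, ribosomal and mitochondrial reads, called peaks per sample with MACS and unified them, counted reads with featureCounts and compared groups with DESeq2. A shift of reads for the Tn5 cut is not stated in the sources used here. Removal of multi-mapping reads can lower the signal of near-identical gene copies, and peaks near 2 genes were given to a single gene. The deposited values of the table are a score, depth-normalized counts that the authors rounded to whole numbers, so no count model was used. Read totals of the libraries are stated in the study's supplement and were not used here, and the total given for a library is its sum over peaks.

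Zfp peaks were those annotated to protein-coding genes with a symbol of Zfp and a digit. The members and all gene lists were chosen with earlier results of these data known. A further listed blood cell marker is not reported here. limma 3.58.1 (R 4.3.3, statmod 1.5.0) was fitted with trend and robust moderation on log2(value + 1) over all peaks with a mean above 10, with Benjamini-Hochberg adjustment over all of them and calls at an adjusted p under 0.05. Fold changes are on this scale, which understates the change of low peaks. The study calls the libraries biological replicates, and the labels do not tie them to animals. Gained and lost peaks had a log2 ratio of group means beyond 1, which is not the model-based fold change of the study. On simulated data for this comparison (75376 peaks), 36 of 70 changes of 1.5-fold, 61 of 70 of 2-fold and 60 of 60 of 3-fold were recovered, with 21 of 75176 unchanged peaks called. The simulation changed only these few peaks, all with a mean above 50, and had independent noise and no shift in scaling between libraries. In the real fit 28.0% of peaks were called higher and 13.9% lower, so these rates do not carry over to it.

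Named were all peaks of 24 Zfp genes of known role, the 8 higher and 8 lower called peaks of smallest p whose groups do not overlap, the 5 of highest value per kb, all gained and lost peaks, the first and last gene of each cluster, the called peaks of the 3 largest clusters and called KRAB cofactors. Other peaks of these genes were added beside them after their values were seen. Fingers (C, 2 to 4 residues, C, 12 residues, H, 3 to 5 residues, H) and KRAB A boxes were searched in the longest GENCODE coding sequence per gene, and motifs on both strands of RefSeq promoters (GRCm38.p6). Alternatives covered the filter, pseudocount, scaling, moderation, a replicate block and leaving out each library. Python 3.11.15, pandas 2.3.3, NumPy 2.4.6 and matplotlib 3.10.9 were used.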

Additional observations from a re-analysis of the deposited data

How the results depend on the processing

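The number of lower peaks moved most with the scaling of the libraries, and that of higher peaks with leaving out single libraries. Higher Zfp peaks, 24 on the deposited values, were 15 with the total signal in peaks. Lower Zfp peaks, 19 on the deposited values, were 65 after median-of-ratios scaling, 88 by total signal and 91 after quantile normalization, and the median log2 fold change was -0.075, -0.11 and -0.14. With either of the first 2 of these scalings 1 peak was gained. The start site peak of Zfp869 turned to a lower call with the total signal (-0.14, limma adjusted p = 0.00866) and quantile normalization (-0.10, 0.0118), and the Zfp36l1 peak 1367 bp from the start with the total signal (-0.11, 0.039). Leaving out each library in turn gave 12 to 60 higher and 13 to 19 lower peaks, 2 to 4 gained and 2 to 4 lost peaks, and medians of -0.017 to 0.10. With a mean above 50, 1 peak was lost. At 1.5-fold 11 peaks were gained and 10 lost, and beyond a log2 ratio of 1.5 there were 0 and 1. With the peak nearest the start site of each gene alone, 12 were lower, 0 gained and 1 lost. Requiring at least 5 genes left 8 clusters of 83 genes. Without trend and robust moderation 17 peaks were higher and 19 lower. The called Zfp and KRAB cofactor peaks that are named were 28 in all. Of these, 19 kept their call and direction under every alternative that tested them, 9 lost the call under at least 1, and none reversed. The distal Zfp1 peak is removed by the filter on a mean above 50. The called peaks of Taf4, Pax7, Vcam1 and Acta1 are not among these 28. Under all 15 settings 9 Zfp peaks were called higher and 10 lower.

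With the replicate number as a block 23 peaks were higher and 19 lower, of which 23 and 18 were called in the same direction without it. Deviations of same-numbered libraries correlated at 0.11, -0.12 and -0.029, and those of differently numbered libraries at -0.12 to 0.15. With 3 libraries per group these values cannot decide whether libraries were paired, and the labels do not tell. The chromosome 13 cluster, with 4 lower peaks, had 3 with the block. The effect of read depth on low peaks such as those of Zfp1 and Zfp984 was not tested.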
